A study of Mus musculus with 2 samples.

Results

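GATA3 is a zinc-finger transcription factor that binds GATA-containing DNA and directs naive CD4+ T cells towards the T helper 2 fate. The 5511 regions described here held a strong read signal in both GATA3 immunoprecipitation libraries of the series, at levels no more than 2-fold apart. The signal is a read count, and without an input library it does not show GATA3 binding at each region. They were chosen among 8521046 bins of 200 bp with a read on mouse chromosomes 1 to 19. With the same limits on read quality and strand but any ratio, 6232 regions were strong in both libraries.

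The series holds 2 chromatin immunoprecipitation libraries made with a GATA3 antibody from CD4+ T cells of C57BL/6 mice, taken as naive CD25-negative, CD62L-positive cells. One is labelled TGF-β +IL-4. The protocol, shared by both, describes plate-bound anti-CD3 and soluble anti-CD28 at 1 μg/ml each, with TGF-β1 at 2 ng/ml, and IL-4 at 10 ng/ml for some cells. The other library has NA as its treatment, so whether its cells had TGF-β1 alone or neither cytokine is not known, and it is referred to below as the unnamed-treatment library. There is 1 library per condition. Differences between them therefore have no replicates behind them, and every value below is a description without a test. No input library was used here, and the number of mice behind each library is not given in the sources used here. The labelled cell type could not be checked against marker genes, since the files hold reads on mm9 and no mm9 annotation was used here. Regions are therefore named by mm9 position alone.

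GATA3 is present at a low level in naive CD4+ T cells, where it takes part in T cell development and survival, and IL-4 signalling through STAT6 raises it during T helper 2 differentiation. TGF-β together with IL-4 is the classical condition for IL-9-producing T helper cells, and the title of the series concerns IL-9 and the inhibitor protein Id3. In a chromatin immunoprecipitation library, reads on the plus strand pile up just before a bound site and reads on the minus strand just after it. A sharp site therefore appears as a pair of strand summits about 1 fragment length apart.

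The members were picked by their own read counts, so the levels and ratios that follow describe the choice and support nothing. Reads were placed at the centre of their fragment, 63 bp inwards of the 5′ end, and counted as RPM, reads per 1000000 reads of the library on chromosomes 1 to 19, X and Y. A level of 2 RPM stood for 46 reads in the unnamed-treatment library and 32 in the TGF-β/IL-4 library. It was reached by 9240 bins in the first, by 15308 in the second and by 8151 in both. Most bins that were strong in both libraries had a ratio (TGF-β/IL-4 over unnamed treatment) from 0.8 to 2, namely 7094, or 87.0%. The ratio was above 2 in 644 bins (7.9%) and below 0.8 in 413 (5.07%). A further 323 bins were left out because reads of the top mapping quality, 42, made up under 70%, and 6 because over 80% of the reads lay on 1 strand. The 6765 bins left merged into 4387 regions of 200 bp, 1010 of 400 bp, 102 of 600 bp, 8 of 800 bp and 4 of 1000 bp.

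**Figure D1:**
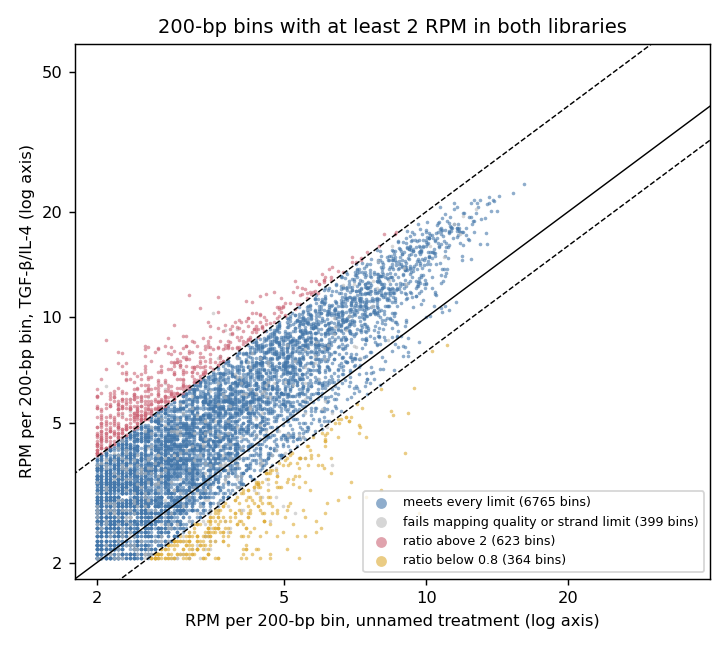
RPM of each 200-bp bin with at least 2 RPM in both libraries, unnamed treatment on the x axis and TGF-β/IL-4 on the y axis, both logarithmic. The solid line is a ratio of 1 and the dashed lines are ratios of 0.8 and 2; the 6765 bins that meet every limit lie mostly above the solid line.

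At its edges the rule cuts through a continuous range. With the lower of the 2 levels between 2 and 2.2 RPM there were 956 bins just inside, with a median ratio of 1.35, and between 1.8 and 2 RPM there were 968 bins just outside, with 1.30. Ratios from 0.8 to 0.85 were found in 138 bins and ratios from 0.75 to 0.8 in 114. At the upper edge 288 bins lay between 1.9 and 2 and 180 between 2 and 2.1. No gap in level or ratio set the members apart from their neighbours.

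The members covered 1353000 bp and a small share of each library. They held 613570 reads, 2.67% of the unnamed-treatment library (Wilson 95% interval 2.67% to 2.68%), and 577562 reads, 3.71% of the TGF-β/IL-4 library (3.70% to 3.72%). These intervals cover counting error only, as do all others here. In both libraries no read shared its position and strand with another. Counts are therefore capped where positions are filled, and the intervals take no account of that cap. The region levels ran from 2.00 to 47.8 RPM with a median of 3.57 in the unnamed-treatment library, and from 2.06 to 81.2 RPM with a median of 4.76 in the TGF-β/IL-4 library. A median region thus rested on 82 and 74 reads.

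Alike is a loose word for these regions, because most of them had more RPM in the TGF-β/IL-4 library. The median ratio was 1.36, or 0.44 on the log2 scale, and 80% of the ratios lay between 0.962 and 1.78. The ratio was above 1 in 4793 of the 5511 regions (87.0%), against 83.4% of the 6232 regions of any ratio. It lay between 0.8 and its inverse in 2078 (37.7%). The 95% interval of the ratio, taken from the read counts of the region by the exact Clopper-Pearson method, lay wholly above 1 in 2685 regions (48.7%, against 50.1% of regions of any ratio) and wholly below 1 in 0 (against 2.36%). It held 1 in the other 2826. The rule used this contrast, so nothing is read from these shares.

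How many regions lay above 1 turned on the scaling of the libraries. When the TGF-β/IL-4 library was scaled so that bins strong in both libraries had a median ratio of 1, every log2 ratio moved by -0.47. Of the 5511 regions 2629 (47.7%) were then above 1 and 3497 (63.5%) lay between 0.8 and its inverse. Scaling by the reads of bins under 1 RPM moved the log2 ratios by 0.06, and 4991 regions (90.6%) were above 1. Both libraries had no read that shared its position and strand with another, so a position that already holds a read on each strand can gain no more. A correction for positions already occupied gave a median ratio of 1.51 for the strongest class of members, against 1.4998 as counted. It took reads as spread evenly over each region and leaves equal counts unchanged. Equal counts stand for a ratio near 1.48, that of a region with 667 and 668 reads, because the libraries differ in depth. The strongest class had median counts of 213 and 211 reads, so the correction cannot show how far filled positions bring the ratios towards that value.

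Stronger regions had higher ratios, but strength is the mean of the same 2 RPM values that form the ratio. The members were put into 5 classes of nearly equal size by strength. In the weakest class, from 2.03 to 2.79 RPM averaged over the libraries, the median ratio was 1.14, and 75.5% of regions were above 1. In the strongest class, from 8.10 to 64.5 RPM, the median ratio was 1.4998, and 96.6% were above 1. The 3 classes between them had medians of 1.37, 1.37 and 1.403. Across the 5511 regions Spearman's rho of ratio and mean RPM was 0.34, a description across regions that share both libraries, and the minimum of 2 RPM in both libraries limits which ratios the weakest regions can have. The standard deviation of the log2 ratios over regions was 0.25 in the strongest class, where the counting error of a single region had a median of 0.14. In the weakest class the 2 values were 0.27 and 0.30, but there the limits of the rule confine the ratios, so the comparison says nothing about how far those regions differ.

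**Figure D2:**
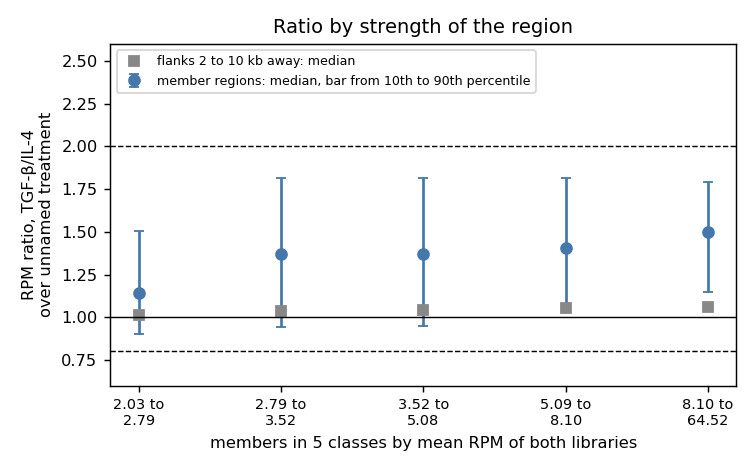
Ratio of RPM (TGF-β/IL-4 over unnamed treatment) by strength class of the members, with the range of mean RPM of each class on the x axis. Circles are medians and bars run from the 10th to the 90th percentile of regions, squares are the medians of the flanks 2000 to 10000 bp away, and dashed lines are the limits of the rule; the region medians go from 1.14 to 1.4998 while the flank medians stay between 1.01 and 1.06.

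The flanks of the members differed less between the libraries than the members did. In the flanks 2000 to 10000 bp away on both sides the median ratio was 1.04, with 80% of the values between 0.791 and 1.42. Other members were not masked there, so flanks of members that lie close together can hold reads that the rule used. The region ratio exceeded the ratio of its own flanks in 4336 of 5511 regions (78.7%). The summit of the smoothed coverage stood a median of 34.2-fold over the flanks in the unnamed-treatment library and 45.2-fold in the TGF-β/IL-4 library. This fold needs no scaling between libraries, but it is not free of their depth. With at most 1 read per position and strand, summits are capped sooner than sparse flanks. A median of 29.5% of summit positions held a read in the deeper, unnamed-treatment library and 26.4% in the other. The fold was higher in the TGF-β/IL-4 library in 4333 regions (78.6%), by a median factor of 1.28. It contains the same reads as the rule and is no independent support. The fold was at least 10 in both libraries in 5276 regions (95.7%). Without an input library a site that is open or present in extra copies cannot be told apart from one that binds GATA3.

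The strand pattern was that of sharp sites in both libraries. Averaged over all members, the plus-strand reads of each library peaked 70 bp before the centre of the region and the minus-strand reads 50 bp after it, in steps of 20 bp. The steps at 50 and 70 bp were nearly level on each strand. They differed most on the minus strand of the unnamed-treatment library, with 0.351 RPM at 50 bp and 0.348 RPM at 70 bp. No offset between the strands is read from this. In a single region the median minus-strand and plus-strand 5′ ends near the summit were a median of 127 bp apart with the unnamed treatment and 128.5 bp with TGF-β/IL-4. This distance lay between 100 and 160 bp in both libraries in 4753 regions (86.2%) and was under 60 bp in both in 5. The rule asked for 20% to 80% of reads on the plus strand and counted reads after a shift of 63 bp, which favours strands about that far on each side of a site, so the distance is not free of the rule.

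**Figure D3:**
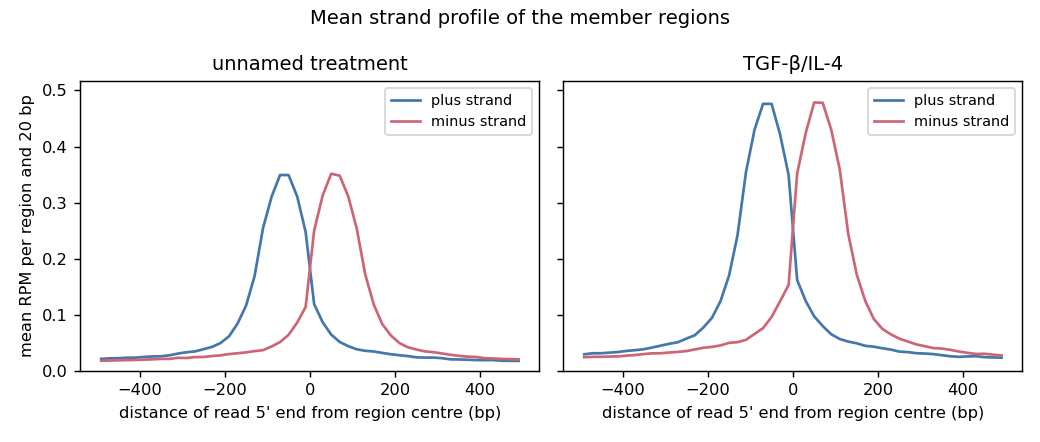
Mean RPM per region in steps of 20 bp for read 5′ ends of the plus and the minus strand, by distance from the centre of the 5511 member regions, 1 panel per library. In each panel the plus strand peaks 70 bp before the centre and the minus strand 50 bp after it. The steps at 50 and 70 bp are nearly level on each strand, and the peaks are higher in the TGF-β/IL-4 library.

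Most members were narrow, and their summits in the 2 libraries lay close together. The width of the smoothed coverage at mid-height, midway between the flanks and the summit, had a median of 156 bp in the unnamed-treatment library and 158 bp in the TGF-β/IL-4 library. The smoothing over 127 bp and the read shift set part of this width, which was 257 and 261 bp with no shift. With the shift of 63 bp it was at most 200 bp in both libraries in 4454 regions (80.8%) and over 300 bp in both in 69. The summits of the 2 libraries lay within 50 bp of each other in 5293 regions (96.0%) and within 10 bp in 2955 (53.6%). The region itself sets a ceiling here, since the summit was looked for inside it and most regions are 200 bp long. In the weakest class the median distance was 12 bp, and in the strongest class 6 bp, with more reads to place the summit.

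In 57 regions the summits were over 100 bp apart. The largest distance was on chromosome 6 from 47571001 to 47571600, with 13.2 RPM in the unnamed-treatment library and 20.8 RPM in the other. There the summits lay 432 bp apart, and the ratio was 1.58 (95% interval 1.34 to 1.85). On chromosome 10 from 74896801 to 74897400, with 7.32 and 8.23 RPM, they lay 381 bp apart, and the coverage at mid-height was 146 bp wide in the unnamed-treatment library and 338 bp in the TGF-β/IL-4 library. Each of these regions is 600 bp long and has room for more than 1 summit.

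The 10 regions with the highest RPM, summed over the whole region, all had ratios between 1.37 and 1.78. At their summits 65.0% to 99.2% of the positions, counted on each strand, held a read in the unnamed-treatment library, and 73.2% to 98.4% in the other. Filled positions can bring a ratio towards that of equal read counts, near 1.48. These ratios are therefore not read as a gain, and how far filling sets them was not tested. Long regions hold more reads, so the order by RPM is one of total signal and not of signal per base. The first was on chromosome 17 from 39982001 to 39983000, with 47.8 RPM (1098 reads) in the unnamed-treatment library and 81.2 RPM (1264 reads) in the TGF-β/IL-4 library, a ratio of 1.70 (1.57 to 1.84). It was unlike a sharp site: its coverage at mid-height was 1290 and 1313 bp wide, and 81.3% of its reads had the top mapping quality, against a median of 96.5% over the members. Its flanks had a ratio of 1.87, above its own, and its fold over the flanks was 27.0 in the unnamed-treatment library and 24.0 in the other. The second, on chromosome 8 from 124807601 to 124808600, had 36.5 and 64.7 RPM, a ratio of 1.77 (1.61 to 1.94). The third was on chromosome 9 from 68882001 to 68882800, with 30.8 and 47.5 RPM and a ratio of 1.54 (1.39 to 1.71). At its summit 93.7% and 94.1% of the positions, counted on each strand, already held a read.

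None of the next 7 regions in this order was as wide as the first. The fourth, on chromosome 5 from 53958001 to 53958600, held 29.0 and 42.9 RPM and had a ratio of 1.48 (1.33 to 1.65). In the fifth, on chromosome 1 from 166065401 to 166066000, with 25.5 and 41.1 RPM, the ratio was 1.61 (1.44 to 1.803) and the width at mid-height was 195 bp in the unnamed-treatment library and 409 bp in the TGF-β/IL-4 library. Chromosome 2 held the sixth, from 77743001 to 77743400, with 25.7 and 38.6 RPM, and the seventh, from 128325401 to 128326000, with 24.7 and 39.3 RPM. The sixth stood only 17.7-fold and 20.5-fold over its flanks, while the seventh stood 92.7-fold and 146-fold over its own. At the summit of the sixth 99.2% and 98.4% of the positions, counted on each strand, already held a read. Chromosome 18 held the eighth, from 39678801 to 39679600, whose fold over the flanks was 55.9 in the unnamed-treatment library and 111 in the other, at a ratio of 1.78 (1.58 to 2.01). The ninth and the last were on chromosome 11, from 33838801 to 33839800 with 25.2 and 34.6 RPM, and from 98331201 to 98331800 with 22.2 and 35.0 RPM. The ninth had the lowest ratio of the 10, at 1.37. The first, the second and the ninth were also the strongest of the 4 members that were 1000 bp long.

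In the strongest class 17.3% of regions had a ratio between 0.8 and its inverse. There the ratio nearest to 1 was on chromosome 4 from 129252201 to 129252600, with 8.75 RPM in the unnamed-treatment library and 8.74 RPM in the other (95% interval 0.797 to 1.247). Next came chromosome 10 from 115834601 to 115835000, with 9.14 and 9.12 RPM (0.801 to 1.24), and chromosome 2 from 167209201 to 167209400, with 8.84 and 8.87 RPM. The intervals of these regions still span about the whole range between 0.8 and its inverse. In the whole set 12 regions (0.218%, against 0.209% of regions of any ratio) had an interval that stayed between 0.8 and its inverse. Of these the most reads outside chromosome 11 were on chromosome 16 from 36056601 to 36057000, with 385 and 260 reads, 16.8 and 16.7 RPM and an interval of 0.848 to 1.17, and on chromosome 9 from 56372001 to 56372400, with 388 and 251 reads, 16.9 and 16.1 RPM and an interval of 0.811 to 1.12. These 2 were picked after their values were seen.

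Regions nearest the ratio limits were named by their position at the limit. The ratio nearest to 0.8 was on chromosome 7 from 50701801 to 50702000, with 3.61 and 2.89 RPM and an interval of 0.544 to 1.16, followed by chromosome 11 from 62658201 to 62658400 (2.57 and 2.06 RPM) and chromosome 5 from 36877001 to 36877200 (3.05 and 2.44 RPM). The ratio nearest to 2 was on chromosome 3 from 69244801 to 69245000, with 2.70 and 5.40 RPM and an interval of 1.42 to 2.82. It was followed by chromosome 16 from 89836201 to 89836400 (2.09 and 4.18 RPM) and chromosome 6 from 24578601 to 24578800 (4.18 and 8.35 RPM). Over all members the interval stayed inside 0.8 to 2 in 2072 regions (37.6%).

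Many members had another member nearby on the chromosome. The median distance to the nearest other member was 36.0 kb. The average spacing over chromosomes 1 to 19 was 448.6 kb, but this is length per member, a different measure from a nearest distance. Another member lay within 20 kb for 2174 regions (39.4%), within 5 kb for 1101 (19.98%) and within 50 kb for 3152 (57.2%). The same shares for strong regions of any ratio are not given here, so closeness is not shown to be particular to the members. In 96 regions the nearest other member was over 1 Mb away. Merging split some sites: 171 members touched a bin with a ratio above 2 and 44 touched one below 0.8, so part of the same stretch of signal lies outside the set.

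**Figure D4:**
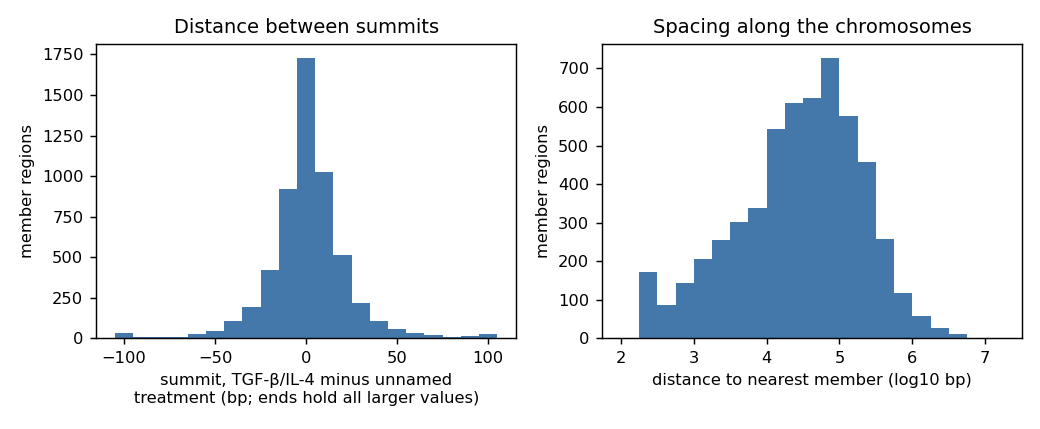
Left, number of member regions by the distance between the summits of the libraries in bp, in steps of 10 bp. Right, number of member regions by the distance to the nearest other member on a log10 scale of bp. On the left 2955 regions lie within 10 bp of 0, and on the right the median is 36.0 kb.

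The densest stretches of all were a single place on chromosome 11, where the regions did not look like the rest. By the rule on stretches of 20 kb, 17 members lay between 3053801 and 3073600 and 11 between 3077401 and 3096200. Both belong to 1 chain of 35 members, with gaps of at most 10 kb, from 3036801 to 3098400. The whole neighbourhood was raised: a median of 4293 and 2713 reads fell in the flanks of these regions, against 284 and 191.5 for the other 5476 members. Flanks within the chain hold other members of it, so reads of members are part of these counts and of the flank ratio. The summits stood only 2.62-fold and 2.49-fold over the flanks (medians), against 34.4-fold and 45.4-fold elsewhere. Of the 40 members under 5-fold in both libraries, 32 were in this chain.

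Most members of that chain had fewer RPM in the TGF-β/IL-4 library. The median ratio, among members that the rule keeps at 0.8 or more, was 0.955, or 0.690 with scaling to the median of the strong bins, the flanks had 0.921, and 12 of 35 regions were above 1, or 3 with that scaling and 17 with scaling by the bins under 1 RPM. The other members had a median of 1.36. A further 14 regions inside the chain fell below a ratio of 0.8 and 0 were above 2. The median share of reads with the top mapping quality was 80.7% in the chain and 96.5% elsewhere, while the distance between the strands, 127 and 119 bp, was near that of other members. Whether mapping has a part in this stretch was not tested. Without these 35 regions chromosome 11 kept the highest density of members, 3.82 per Mb in place of 4.11.

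**Figure D5:**
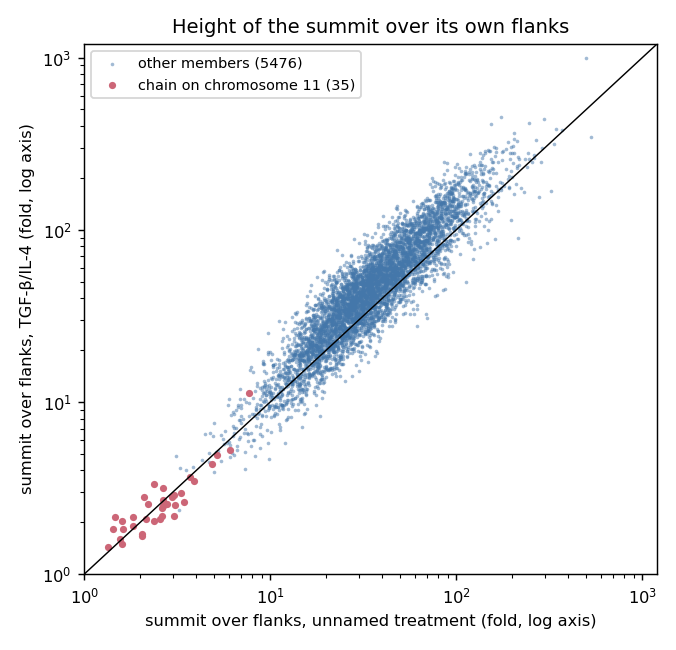
Height of the summit over the mean coverage of its flanks, unnamed treatment on the x axis and TGF-β/IL-4 on the y axis, both logarithmic, for the 35 members of the chain on chromosome 11 and the other 5476. The chain sits at the lower left, with medians of 2.62-fold and 2.49-fold, and most other members lie above the line of equal fold.

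The third stretch by the rule was also on chromosome 11, from 11611801 to 11628200, with 7 members that together had 50.6 RPM in the unnamed-treatment library and 71.7 RPM in the other, a ratio of 1.42 (1.30 to 1.54). Its strongest member, from 11625401 to 11626000, had 14.2 and 22.9 RPM and a ratio of 1.61 (1.38 to 1.88). The member at its near end, from 11611801 to 11612200, had 12.2 and 13.9 RPM and a ratio of 1.14 (0.953 to 1.37). The intervals of these 2 members, which were picked after their values were seen, do not overlap, though by little, and each counts reads of 1 library per condition.

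Further stretches were named after their values were seen, by the number of members. On chromosome 17, 6 members between 39980401 and 39985800 include the strongest region and had ratios from 1.495 to 1.88, with median widths at mid-height of 1358 and 1404 bp. On chromosome 10, 6 members between 18904801 and 18924000 held 32.1 and 49.6 RPM in all, with ratios from 0.876 to 1.83. On chromosome 8, 6 members between 129357601 and 129376200 held 15.8 and 20.9 RPM. Groups of 5 lay on chromosome 2 from 77743001 to 77757400, chromosome 11 from 53430801 to 53450000, chromosome 9 from 32303201 to 32317800, chromosome 16 from 10672601 to 10684800, chromosome 3 from 87316201 to 87333800 and chromosome 14 from 75574601 to 75592800. Their summed ratios ran from 1.30 on chromosome 14 to 1.65 on chromosome 3. In all, 192 stretches of up to 20 kb that did not overlap held at least 3 members and 42 held at least 4.

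The members were spread over all of chromosomes 1 to 19 at similar ratios. Their density ran from 1.54 per Mb on chromosome 14 to 4.11 on chromosome 11, with chromosome 9 next at 2.97. The median ratio of a chromosome ran from 1.31 on chromosomes 11 and 18 to 1.42 on chromosome 13. The share of bins strong in both libraries that met every limit was lowest on chromosome 11, at 75.2%, and highest on chromosome 3, at 87.4%.

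Beside the members, 592 regions met the same limits but had a ratio above 2 and 348 had one below 0.8. These sets were cut by the same reads, so differences in level between them and the members are those of the rule. Most regions of either set were narrow too, but widths up to 200 bp in both libraries were found in 63.5% of the higher set and 85.6% of the lower set, against 80.8% of the members. The median widths at mid-height were 165 and 174 bp in the higher set and 154 and 149 bp in the lower set, and the summits lay within 50 bp in 95.1% and 94.5% of regions. The flanks had a median ratio of 1.12 around the higher set, 1.04 around the members and 0.946 around the lower set. Regions of any set were not masked from these flanks, which are thus not free of the rule. With 1 library per condition these differences have no test. Regions of the higher set lay within 20 kb of a member in 314 of 592 cases (53.0%) and touched one in 166, and those of the lower set in 153 of 348 (44.0%) and 42. Some of the contrast between the sets is thus between bins of a single stretch of signal.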

How the data were processed

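Each of the 2 deposited files holds 1 aligned read per line with its mapping quality, a score that the authors deposited with each read and that ran from 11 to 42. All reads were 25 bases long. Per the submitters' processing notes the tools were CASAVA 1.0 and Bowtie2 and the build was mm9; settings are not given in the sources used here. The deposited file names state a quality filter and removal of duplicates, and 0 reads shared position and strand with another. Reads on chromosomes 1 to 19, X and Y numbered 22963959 in the unnamed-treatment library and 15561681 with TGF-β/IL-4, so 1 read was 0.0435 and 0.0643 RPM. The 1117 and 1161 mitochondrial reads were left out. The protocol gives sonication to 200 to 300 bp, 17 cycles and gel fragments of about 220 bp.

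Computed here were bin counts, regions, intervals and coverage shapes, with Python 3.11.15, numpy 2.4.6, pandas 2.3.3, scipy 1.17.1 and matplotlib 3.10.9. The code was tested on simulated data. A summit is the highest point of fragment centres smoothed over 127 bp, and widths are taken midway between summit and flanks. Members, lists and named regions were chosen with earlier results of these data known. The regions named are the 10 with most RPM, the 3 longest, the 3 nearest a ratio of 1 in the strongest of 5 classes, the 3 nearest each limit, the 2 with the summits farthest apart and the 3 densest stretches of 20 kb. Motif and gene-start analyses had been planned on condition of mm9 sequence and annotation, and were not made. No sequence is printed for the same reason.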

Additional observations from a re-analysis of the deposited data

Results flagged for a closer look

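The rule takes chromosomes 1 to 19 only. On chromosome X, outside the set, 93 bins reached 2 RPM in both libraries and 70 met every limit, forming 65 regions with a median ratio of 1.26. Each such bin held at least 46 and 32 reads because the minimum of 2 RPM asks for that many. Their density was 0.390 per Mb, below that of every one of chromosomes 1 to 19. On chromosome Y 6 bins reached 2 RPM in both libraries, with a median ratio of 0.838, and 0 of them met the limit on mapping quality: a median of 30.4% of their reads had the top value.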

How the results depend on the processing

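No paired analysis was possible because each condition has 1 library, and no library could be left out. The number of regions, 5511, stayed within 1.5 times under 12 alternatives, from 4074 to 7797. Only the number was compared, and not whether the same regions were in it. It was 14071 with a minimum of 1 RPM, 3166 with 3 RPM and 2283 with ratios from 0.8 to its inverse. The median ratio, 1.36, was set against a tolerance from the counting error of the ratio pooled over all member reads. That tolerance is narrow and is not the error of a median over regions, and most alternatives moved beyond it. The median ratio was 1.35 with bins shifted by 100 bp, 1.34 with bins of 400 bp and 1.37 with no read shift. Other limits gave 1.39 at 3 RPM, 1.31 at 1 RPM, 1.33 with ratios from 0.5 and 1.06 with ratios up to the inverse of 0.8. It was 1.11 with scaling to the median of strong bins (members chosen anew) and 1.39 with scaling by bins under 1 RPM. It was 1.35 with the deeper library thinned and 1.35 with top-quality reads only. Chosen after seeing the data, it was 1.38 with flank reads subtracted and 1.35 with a correction for occupied positions. Chromosome X bins numbered 46 with no read shift, 30 at 3 RPM, 217 at 1 RPM and 31 with ratios up to the inverse of 0.8. With no read shift the median widths were 257 and 261 bp and 74.2% of summits lay within 50 bp; with a shift of 100 bp these were 188, 189 and 93.6%. Neighbours were found for 19.98% at 5 kb and 57.2% at 50 kb. The cause of these shifts was not tested. Depth limits single ratios: a median region has a counting error of 0.23 on the log2 scale.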

Other observations

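Neighbouring members were compared by their ratios, as values only. Over 228 adjacent pairs with a gap of up to 1 kb the median absolute difference of the log2 ratios was 0.25, over 1075 pairs with a gap of 1 to 20 kb it was 0.28, and over 2714 pairs more than 100 kb apart it was 0.33. The median counting error of such a difference, given as a standard error, was 0.32, 0.32 and 0.33. A standard error and a median absolute difference are unlike measures, so nothing is read from setting them side by side.

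Widths of the same region in both libraries had a Spearman's rho of 0.73 over the 5511 members, and the folds over the flanks one of 0.91. These are descriptions across regions, which share both libraries and their local background.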
